A study of Mus musculus with 42 samples.

Results

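RET is the receptor tyrosine kinase through which growth factors of the GDNF family act. *Ret* was followed here with its ligand gene *Gdnf*, its coreceptor gene *Gfra1* and 4 further genes, *Dusp14*, *Igfbpl1*, *Gcnt1* and *Degs1*, which makes 7 genes of the 56953 that were counted. *Ret*, *Dusp14*, *Igfbpl1*, *Gcnt1* and *Degs1* were selected by the study because they differed between the right and left heart field of wild types. Their asymmetry in wild types is therefore a description with no test, and so is the change of that asymmetry from wild types to mutants. *Gdnf* and *Gfra1* were added because their products work with RET, and each comparison could be tested for them.

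Bulk RNA sequencing covered both sides of the heart field of 21 mouse embryos at the stage E8.5i, in 42 libraries. There were 5 wild types (Ccdc40+/+) with rightward looping of the heart, 4 of them male and 1 female. The mutants were homozygous for the *lnks* allele (Ccdc40lnks/lnks), and 11 of them looped rightward (6 male and 5 female) and 5 in the inverted direction (3 male and 2 female). The study placed some of the rightward mutants with the wild types as situs solitus, the usual arrangement of organs, and the others in a heterotaxy cluster, in which organs are not placed in one concordant direction, by grouping embryos on asymmetric genes that include the selected ones. The labels do not carry this division, so the rightward mutants were kept as a single group that mixes both laterality types, and their means are over both. No group had been treated. The *lnks* allele is a chemically induced nonsense point mutation carried by every cell of the embryo, and *Ccdc40* is needed for the beating of motile cilia, so the mutants lack the directed flow at the node. Head, back, heart tube and lower trunk had been cut away and the rest divided at the midline, so that each library is a mixture of the cell types left on 1 side, and fewer cells of a type cannot be told apart from less RNA per cell.

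GDNF binds GFRA1 at the cell surface, and this complex brings RET molecules together and switches on their kinase, which feeds the RAS and MAP kinase pathway, PI3 kinase and phospholipase C. The pathway is best known for the branching of the ureteric bud into the kidney and for the neural crest cells that build the enteric nervous system. Heart progenitors of the lateral plate receive left identity from NODAL signalling, and the fields of both sides then feed the heart tube unequally while it loops. DUSP14 is a phosphatase that removes phosphate from MAP kinases, and IGFBPL1 is a secreted relative of the binding proteins of insulin-like growth factors. GCNT1 builds branches on the O-linked sugar chains of proteins, and DEGS1 inserts the double bond that turns dihydroceramide into ceramide.

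In GRCm39, the build of the counts, *Ret* (ENSMUSG00000030110) lies at chr6:118128706-118174769 on the minus strand, *Gdnf* (ENSMUSG00000022144) at chr15:7840327-7867060 on the plus strand and *Gfra1* (ENSMUSG00000025089) at chr19:58223212-58444346 on the minus strand. The other 4 lie on the minus strand, with *Dusp14* (ENSMUSG00000018648) at chr11:83938521-83960087, *Igfbpl1* (ENSMUSG00000035551) at chr4:45809254-45826923, *Gcnt1* (ENSMUSG00000038843) at chr19:17303505-17350208 and *Degs1* (ENSMUSG00000038633) at chr1:182103335-182110389. All 7 are protein-coding, and values are summed over all exons of a gene. *Gfra1* overlaps *Gm16277* on the opposite strand, whose median count was 0, and the counts do not hold the annotated genes that overlap *Igfbpl1* and *Gcnt1*.

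The RefSeq promoter table, built on GRCm38.p6, had entries for *Gdnf*, *Gfra1*, *Dusp14*, *Gcnt1* and *Degs1*, 5 of the 7 genes, with 8 promoters in all. The 250 bases before each start site were searched on both strands for AATCCACA, the site of the NODAL effector FOXH1, for the SMAD palindrome GTCTAGAC and for the TATA box TATAAA. In GRCm39 5 of the 8 windows overlapped an annotated UTR, that of *Gfra1* with all its 250 bases, so that not every window lies upstream of its gene model. None of the 8 windows held the FOXH1 or SMAD letters, which were present in 0.718% and 0.167% of 32851 promoters of the same length. The TATA letters, found in 12.4% of those promoters, were in 2 of the 8. These 2 are shown as the windows that held any of the letters searched, with the TATA letters of either strand in capitals. The other window of *Gdnf*, the other 2 of *Gcnt1* and those of *Gfra1*, *Dusp14* and *Degs1* held none. In GRCm39 the first window is chr15:7839279-7839528 on the plus strand, upstream of the *Gdnf* gene model, and the second is chr19:17350209-17350458 on the minus strand, directly before the *Gcnt1* gene model.
Gdnf: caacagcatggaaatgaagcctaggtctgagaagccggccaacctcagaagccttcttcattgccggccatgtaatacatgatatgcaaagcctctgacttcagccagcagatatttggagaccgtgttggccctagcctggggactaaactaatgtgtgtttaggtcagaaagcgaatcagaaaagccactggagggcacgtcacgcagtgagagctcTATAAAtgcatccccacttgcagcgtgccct
Gcnt1: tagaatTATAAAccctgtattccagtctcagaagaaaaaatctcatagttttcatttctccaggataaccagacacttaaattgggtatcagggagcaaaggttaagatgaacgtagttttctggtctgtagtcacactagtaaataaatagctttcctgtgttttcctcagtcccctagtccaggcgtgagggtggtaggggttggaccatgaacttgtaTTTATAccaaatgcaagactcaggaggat

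Library totals ranged from 36073684 to 62970327 counts. All 7 genes passed the filter on low counts in every comparison, and the lowest count of any of them was 50, for *Gdnf*. *Ccdc40* stood at 14.9 to 25.4 CPM in the wild types and at 8.95 to 14.8 CPM in the mutants, scaled by the library total alone. These ranges did not overlap, but the lowest wild type, at 14.86, lay close to the highest mutant, at 14.77. Whether they overlap after TMM scaling was not tested. Elsewhere CPM are counts scaled to a common library size by TMM. Of the 14 markers of the second heart field all had counts, with a summed level of 451 to 1179 CPM. The 10 heart muscle markers were also present, at 347 to 5948 CPM in sum, and so were markers of foregut, neural tube and paraxial mesoderm, which are set beside the results below.

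Compared per length of exon, *Degs1* was the most abundant of the 7 genes and *Gdnf* the least. In wild types the level of an embryo, the mean of both sides, was 49.5 ± 1.67 CPM per kb for *Degs1* (SD, n = 5). *Igfbpl1* followed at 8.43 ± 1.98 CPM per kb, and its lowest wild type, at 5.60, was above the highest of *Gcnt1*, at 4.78. *Gcnt1* at 3.71 ± 0.622, *Dusp14* at 3.59 ± 0.468, *Ret* at 2.60 ± 0.464 and *Gfra1* at 2.31 ± 0.430 CPM per kb overlapped each with its neighbour in this order. *Gdnf* stood at 0.551 ± 0.108 CPM per kb, and its highest wild type, at 0.636, was below every wild type of the other 6. The order was the same in mutants with rightward looping, where *Ret* reached 3.12 ± 0.671 and *Gfra1* 3.03 ± 1.05 CPM per kb (n = 11), except that *Dusp14*, at 3.81 ± 0.506, stood above *Gcnt1*, at 3.52 ± 0.448. Inverted mutants had *Ret* at 2.60 ± 0.868 and *Gfra1* at 2.35 ± 0.691 CPM per kb (n = 5).

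Within the GDNF family, *Ret*, the ligand gene *Nrtn* and the coreceptor genes *Gfra1* and *Gfra2* were the genes with the highest level per length. Their medians over the 42 libraries were 2.83, 2.71, 2.58 and 2.26 CPM per kb. *Nrtn* encodes neurturin, which acts through GFRA2, and its range of 0.181 to 6.23 CPM per kb held that of *Ret*, from 1.16 to 4.61. The coreceptor genes *Gfra4* and *Gfra3* had medians of 0.895 and 0.804 CPM per kb, and the ligand genes *Pspn*, *Gdnf* and *Artn* had 0.638, 0.558 and 0.339. Besides *Ret*, 9 of the 11 genes passed the filter, and 0 of these 9 passed the adjusted threshold of edgeR or DESeq2 in any of the 9 comparisons below, in each of which at most 1 had an unadjusted p under 0.05. *Gfral*, the receptor gene of GDF15, was at 0 in 32 of the 42 libraries, which allows up to 3 counts in each, a limit that covers counting error only.

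**Figure D1:**
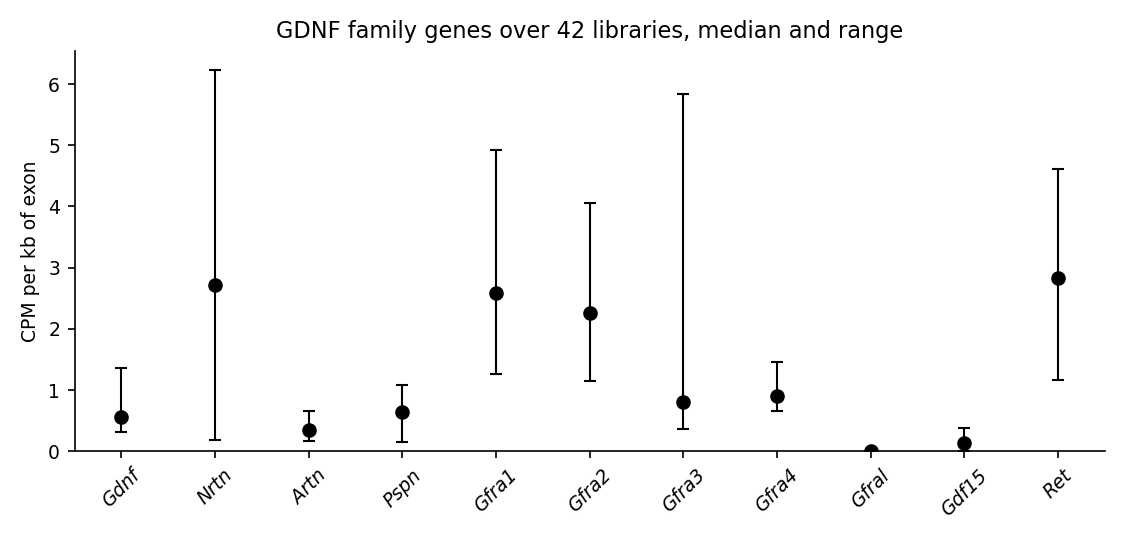
Level per length of the 11 GDNF family genes: points are medians and bars the lowest and highest of 42 libraries, in CPM per kb of exon on a linear axis. *Ret* (2.83), *Nrtn* (2.71), *Gfra1* (2.58) and *Gfra2* (2.26) stand highest and *Gdnf* has a median of 0.558.

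*Ret* was higher on the right in all 5 wild types, in 10 of the 11 mutants with rightward looping and in 1 of the 5 mutants with inverted looping. In left and right sides of the wild types it measured 12.4 and 15.3 CPM in embryo 10_1, 18.1 and 28.4 in 17_7, 18.8 and 20.3 in 22_4, 11.2 and 27.4 in 7_1, and 14.6 and 26.4 in 8_1. The log2 ratio of right over left, taken with a prior count of 2, was smallest in 22_4 at 0.11 and largest in 7_1 at 1.29, and its mean was 0.64 ± 0.47 (SD, n = 5), a fold of 1.56. Being higher on 1 side in every wild type was a property of 5.17% of all genes, and the selection of *Ret* used these same embryos.

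Among mutants with rightward looping, *Ret* on the left had a lowest, median and highest level of 13.1, 21 and 29.9 CPM, and on the right of 17.4, 26.8 and 34.2 CPM. Only in embryo 18_1 was the left side the higher, with a log2 ratio of -0.09, and the mean was 0.29 ± 0.29 (n = 11). Lying on the same side in at least 10 of these 11 embryos was a property of 1.22% of the 22795 genes tested, and in at least 9 of 11 of 5.91%. The exact sign-flip test, two-sided, gave p = 0.00293 for *Ret*, and 4.23% of all genes reached p under 0.05 in it. The 6 males alone had a mean of 0.22 and an exact sign-flip p of 0.063, which does not pass. By edgeR's quasi-likelihood test with the embryo as a block, the log2 fold change of right over left was 0.29 (SE 0.078, p = 0.0025), and after Benjamini-Hochberg adjustment over all genes the adjusted p was 0.950. Of the 7 genes 0 passed the adjusted threshold of 0.05 in edgeR or in DESeq2, against 0.0263% and 0.136% of all genes, and 2 (*Ret* and *Igfbpl1*) had an unadjusted p under 0.05, against 3.59%.

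In inverted mutants *Ret* was higher on the left in 4 of 5. It measured 33.4 CPM on the left and 24.8 on the right in embryo 10_3, 19.1 and 8.58 in 18_2, 15.0 and 12.8 in 2_7, 17.4 and 17.8 in 32_2, and 22.5 and 21.4 in 4_6. The left side was the higher in all but 32_2, whose log2 ratio was 0.03, while 18_2 stood lowest at -1.15. The mean was -0.37 ± 0.47 (n = 5), and the exact sign-flip p was 0.125, where 5 embryos cannot give less than 0.063. EdgeR gave a log2 fold change of -0.35 (SE 0.16, adjusted p = 0.356), which was -0.18 without embryo 18_2. Lying on the same side in at least 4 of the 5 embryos was common here, at 48.3% of the 22960 genes tested.

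*Gdnf* ran the other way in wild types, with the left side higher in 4 of 5. It measured 1.96 CPM on the left and 2.29 on the right in embryo 10_1, 3.17 and 1.51 in 17_7, 2.55 and 1.79 in 22_4, 1.51 and 1.15 in 7_1, and 2.99 and 1.35 in 8_1. Embryo 10_1 alone was higher on the right, and 17_7 and 8_1 leaned most to the left, with log2 ratios of -1.05 and -1.12. The mean log2 ratio was -0.56 ± 0.55 (exact sign-flip p = 0.125, n = 5), and lying on the same side in at least 4 of 5 wild types was a property of 34.4% of all genes. EdgeR gave a log2 fold change of -0.59 (SE 0.23, p = 0.0371, adjusted p = 0.99978). Neither *Gdnf* nor *Gfra1* passed the adjusted threshold in wild types, where 0% of the 23182 genes tested by edgeR did, 2.76% had an unadjusted p under 0.05 and DESeq2 called 0.082%.

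The right side had more *Gdnf* in 4 of 11 mutants with rightward looping and in 4 of 5 with inverted looping. In the first group *Gdnf* spanned 1.71 to 3.64 CPM on the left (median 2.35) and 1.52 to 5.02 CPM on the right (median 1.98). The mean log2 ratio was -0.03 ± 0.55, with embryo 1_6 highest at 1.34. Inverted mutants had 2.47 and 1.59 CPM of *Gdnf* on the left and right in 10_3, 1.68 and 2.35 in 18_2, 1.61 and 2.69 in 2_7, 1.25 and 1.66 in 32_2, and 2.28 and 3.52 in 4_6. All but 10_3 were higher on the right, and the mean log2 ratio was 0.32 ± 0.54 (exact sign-flip p = 0.25), or 0.55 without 10_3 (exact sign-flip p = 0.125). Neither difference between groups passed edgeR's test. Rightward mutants minus wild types gave 0.55 (SE 0.29, adjusted p = 0.99983) and inverted minus rightward mutants 0.37 (SE 0.29, adjusted p = 0.714).

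*Gfra1* followed the side of *Ret* in 4 of 5 wild types. It measured 11.5 CPM on the left and 12.5 on the right in 10_1, 13.6 and 21.1 in 17_7, 11.9 and 14.9 in 22_4, 8.78 and 16.9 in 7_1, and 20.1 and 15.8 in 8_1. The left side was the higher in 8_1, and the mean log2 ratio was 0.33 ± 0.49 (n = 5). EdgeR gave a log2 fold change of 0.33 with an interval of 2 standard errors from -0.03 to 0.69 (adjusted p = 0.99978), which was 0.18 without 7_1 and 0.50 without 8_1. Rightward mutants spanned 9.92 to 31.3 CPM of *Gfra1* on the left (median 17.0) and 11.4 to 31.0 CPM on the right (median 17.9). Their mean log2 ratio was 0.03 ± 0.30, with 6 of 11 embryos higher on the right. Inverted mutants had 20.5 and 15.7 CPM of *Gfra1* on the left and right in 10_3, 11.2 and 8.05 in 18_2, 10.2 and 11.1 in 2_7, 16.8 and 19.3 in 32_2, and 14.3 and 22.2 in 4_6, a mean log2 ratio of 0.02 ± 0.45. The asymmetry of *Gfra1* differed between inverted and rightward mutants by 0.00 with an interval of -0.39 to 0.39, so that a difference of this size in either direction was not detectable.

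**Figure D2:**
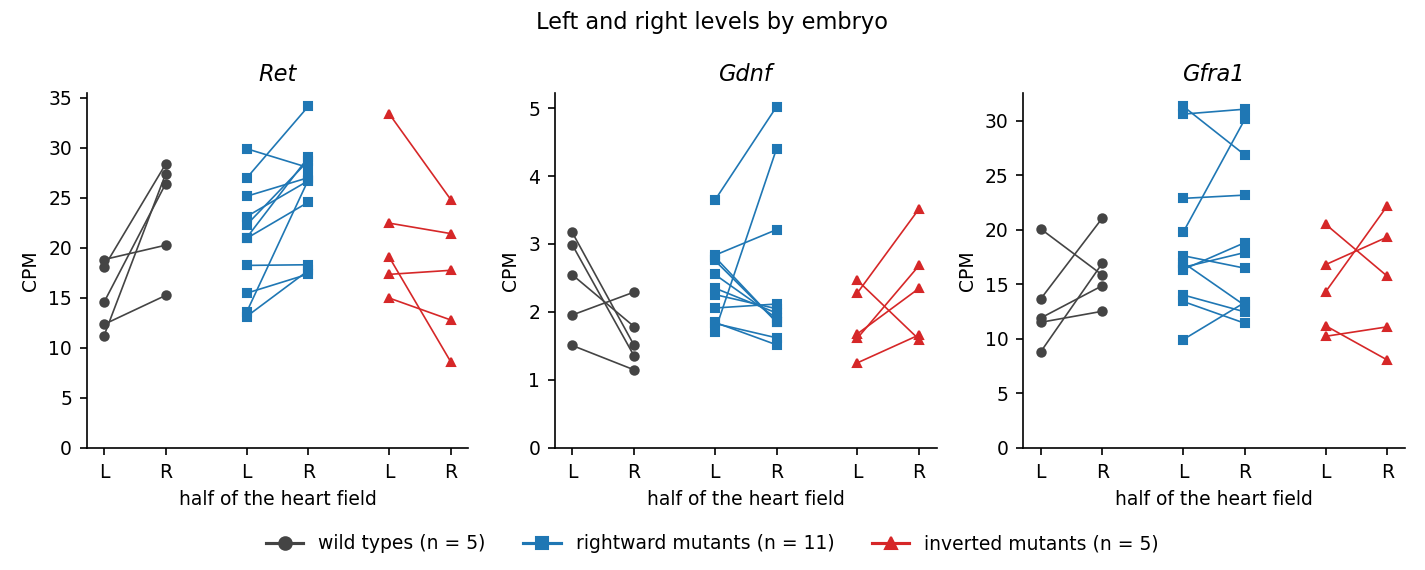
Levels of *Ret*, *Gdnf* and *Gfra1* in CPM on linear axes from 0, with a line joining the left (L) and right (R) side of each embryo, for 5 wild types, 11 rightward mutants and 5 inverted mutants. *Ret* is higher on the right in all wild types and in 10 of 11 rightward mutants, and on the left in 4 of 5 inverted mutants.

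The relation of *Ret* to its ligand and coreceptor was measured over the 11 rightward mutants, in 6 pairings, and no pairing passed the Benjamini-Hochberg adjustment over the 6 (permutation tests, two-sided). For the log2 ratio of right over left, *Ret* and *Gdnf* had a Pearson r of -0.04 (permutation p = 0.882, adjusted p = 0.973) and a Spearman rho of -0.27 (permutation p = 0.419, adjusted p = 0.502). *Ret* and *Gfra1* had r = 0.53 (permutation p = 0.0966, adjusted p = 0.290) and rho = 0.34 (permutation p = 0.313, adjusted p = 0.470), and r was 0.31 without the embryos 3_7 and 18_1, which lay farthest from the median of *Ret*. This r rested on embryo 3_7, since it was 0.02 without that embryo alone and 0.70 without 18_1 alone, and in the 6 males it turned to -0.17. *Gdnf* and *Gfra1* had r = -0.01 (permutation p = 0.973, adjusted p = 0.973) and rho = -0.04 (permutation p = 0.924, adjusted p = 0.924). Without their 2 outermost embryos, *Ret* and *Gdnf* had r = 0.20, and *Gdnf* and *Gfra1* r = -0.00.

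For the level of the embryo, the closest pair was *Gdnf* and *Gfra1*, ligand and coreceptor, with r = 0.66 (permutation p = 0.0231, adjusted p = 0.138) and rho = 0.74 (permutation p = 0.0132, adjusted p = 0.0791). The r was 0.59 without the embryos 2_2 and 18_1, and 0.78 (adjusted p = 0.0427) without 22_1. *Ret* and *Gdnf* had r = 0.44 (permutation p = 0.175, adjusted p = 0.350) and rho = 0.45 (permutation p = 0.174, adjusted p = 0.407), and *Ret* and *Gfra1* r = 0.30 (permutation p = 0.359, adjusted p = 0.539) and rho = 0.42 (permutation p = 0.203, adjusted p = 0.407). Without the embryos 1_6 and 15_5 these values of r were 0.59 and 0.37. Embryo 2_2 alone lowered them to 0.18 and 0.10 when left out, and 1_6 alone raised them to 0.68 and 0.53. The values of 1 embryo share its libraries and their scaling.

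**Figure D3:**
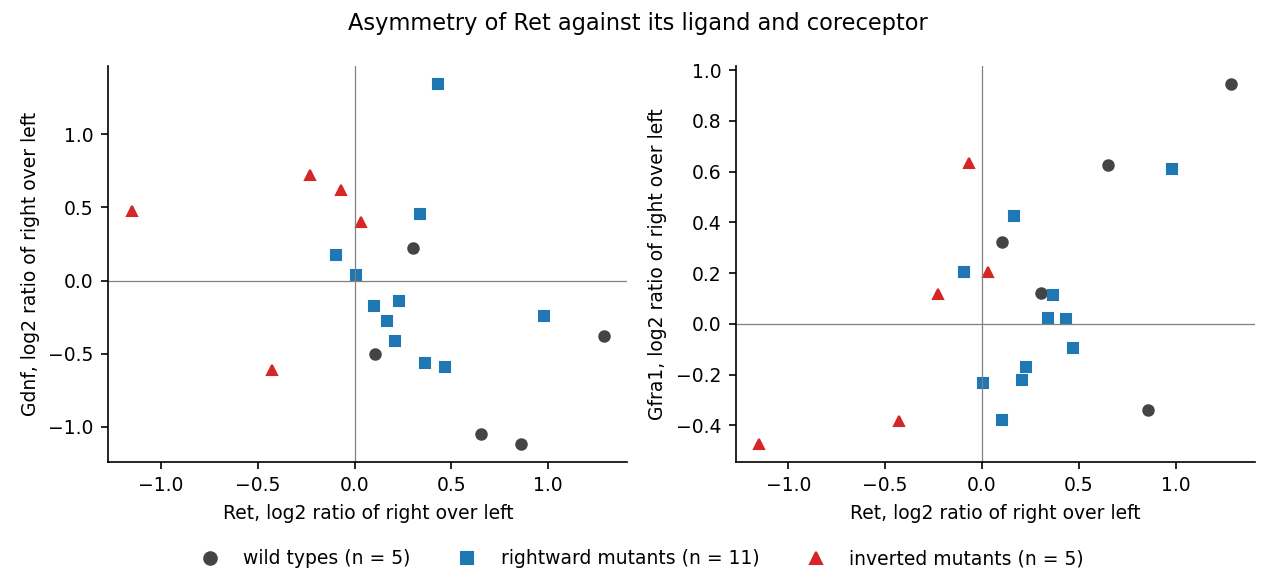
Log2 ratio of right over left of *Ret* (x axis) against that of *Gdnf* (left panel) and *Gfra1* (right panel), 1 point per embryo, with symbols for 5 wild types, 11 rightward and 5 inverted mutants. Over the 11 rightward mutants r is -0.04 for *Gdnf* and 0.53 for *Gfra1*, and the inverted mutants lie at or left of 0.03 for *Ret*.

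*Dusp14* was the most even of the right-sided genes in wild types. It measured 14.9 CPM on the left and 21.1 on the right in 10_1, 14 and 17.8 in 17_7, 14.7 and 22.7 in 22_4, 16.8 and 22.4 in 7_1, and 19.7 and 25.6 in 8_1, and every log2 ratio lay between 0.35 and 0.62 (mean 0.45 ± 0.11, n = 5). In rightward mutants the right side was higher in 8 of 11 embryos, with log2 ratios from -0.29 to 0.65 and a mean of 0.13 ± 0.28 (exact sign-flip p = 0.132, or 0.0410 without embryo 32_3). With 1 embryo left out this mean ran from 0.08 to 0.17. Inverted mutants had *Dusp14* at 23.1 and 16.2 CPM on the left and right in 10_3, 19.4 and 12.9 in 18_2, 14.5 and 16.7 in 2_7, 16.2 and 15.3 in 32_2, and 16 and 21.2 in 4_6. They fell on both sides of 0, with 2 of 5 higher on the right and a mean log2 ratio of -0.12 ± 0.44. This mean had no stable sign, at 0.00 without 18_2 and -0.25 without 4_6.

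*Igfbpl1* was higher on the right in all 5 wild types and on the left in all 5 inverted mutants. Wild types measured 16.7 CPM on the left and 22.1 on the right in 10_1, 18.6 and 31.1 in 17_7, 20.2 and 44.5 in 22_4, 26.9 and 44.7 in 7_1, and 32.4 and 34.8 in 8_1. The log2 ratio ran from 0.10 in 8_1 to 1.13 in 22_4, with a mean of 0.62 ± 0.39. In rightward mutants the left side had a lowest, median and highest *Igfbpl1* level of 17.1, 29.3 and 46.6 CPM and the right side of 27.9, 36.2 and 44.0 CPM. The right was the higher in 10 of 11, with 2_2 the exception at -0.48 and 22_1 at 0.00, and the mean was 0.34 ± 0.43 (exact sign-flip p = 0.0264). That p was 0.0527 without 1_6, 18_1 or 19_4, the embryos with the highest ratios, and 0.25 in the 6 males (mean 0.25). EdgeR gave 0.34 (SE 0.11, p = 0.00977, adjusted p = 0.99987).

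All 5 inverted mutants had less *Igfbpl1* on the right. Left and right measured 37.3 and 25.4 CPM in 10_3, 32.1 and 21.9 in 18_2, 38.1 and 32.0 in 2_7, 27.4 and 23.7 in 32_2, and 35.2 and 28.3 in 4_6. The log2 ratios lay between -0.55 and -0.21 with a mean of -0.38 ± 0.16, and the exact sign-flip p was 0.063, the smallest that 5 embryos allow. EdgeR gave -0.37 (SE 0.077, adjusted p = 0.0567), just short of the threshold, and DESeq2 gave -0.37 (adjusted p = 0.000171). In this comparison 0 of the 7 genes passed in edgeR, against 2.04% of all genes, and 2 of 7 (*Igfbpl1* and *Degs1*) passed in DESeq2, against 7.64%. The same 2 genes had an unadjusted p under 0.05 in edgeR, against 15.1% of all genes, and 15.5% of genes lay on 1 side in all 5 embryos.

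*Gcnt1* and *Degs1* were the selected genes that lay to the left in wild types, as *Gdnf* did in 4 of 5. *Gcnt1* measured 28.5 CPM on the left and 17.7 on the right in 10_1, 28.9 and 23.6 in 17_7, 37.0 and 29.6 in 22_4, 26.0 and 20.8 in 7_1, and 23.4 and 23.4 in 8_1. Embryo 8_1 showed no difference between its sides, and the mean log2 ratio was -0.32 ± 0.24. Rightward mutants had log2 ratios of *Gcnt1* from -0.39 to 0.17 with a mean of -0.02 ± 0.16. Inverted mutants measured 29.4 and 31.5 CPM in 10_3, 23.5 and 29.3 in 18_2, 28.4 and 29.5 in 2_7, 24.5 and 19.9 in 32_2, and 19.9 and 21.8 in 4_6, with the right side higher in all but 32_2 and a mean of 0.06 ± 0.22.

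Relative to its mean, the level of *Degs1* varied least between embryos. Its wild types measured 198 CPM on the left and 156 on the right in 10_1, 198 and 173 in 17_7, 203 and 185 in 22_4, 202 and 165 in 7_1, and 189 and 188 in 8_1. The left was the higher in all 5, though the sides of 8_1 differed by a log2 ratio of only -0.01, with a mean of -0.19 ± 0.13. Rightward mutants had log2 ratios of *Degs1* from -0.18 to 0.20 (mean -0.03 ± 0.11), and 3 of 11 were higher on the right. Inverted mutants measured 144 and 194 CPM on the left and right in 10_3, 168 and 215 in 18_2, 188 and 181 in 2_7, 152 and 194 in 32_2, and 173 and 196 in 4_6. All but 2_7 were higher on the right, with a mean of 0.25 ± 0.19. EdgeR gave 0.26 (SE 0.071, adjusted p = 0.121), which was 0.34 (adjusted p = 0.0388) without 2_7, and DESeq2 0.26 (adjusted p = 0.000992).

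**Figure D4:**
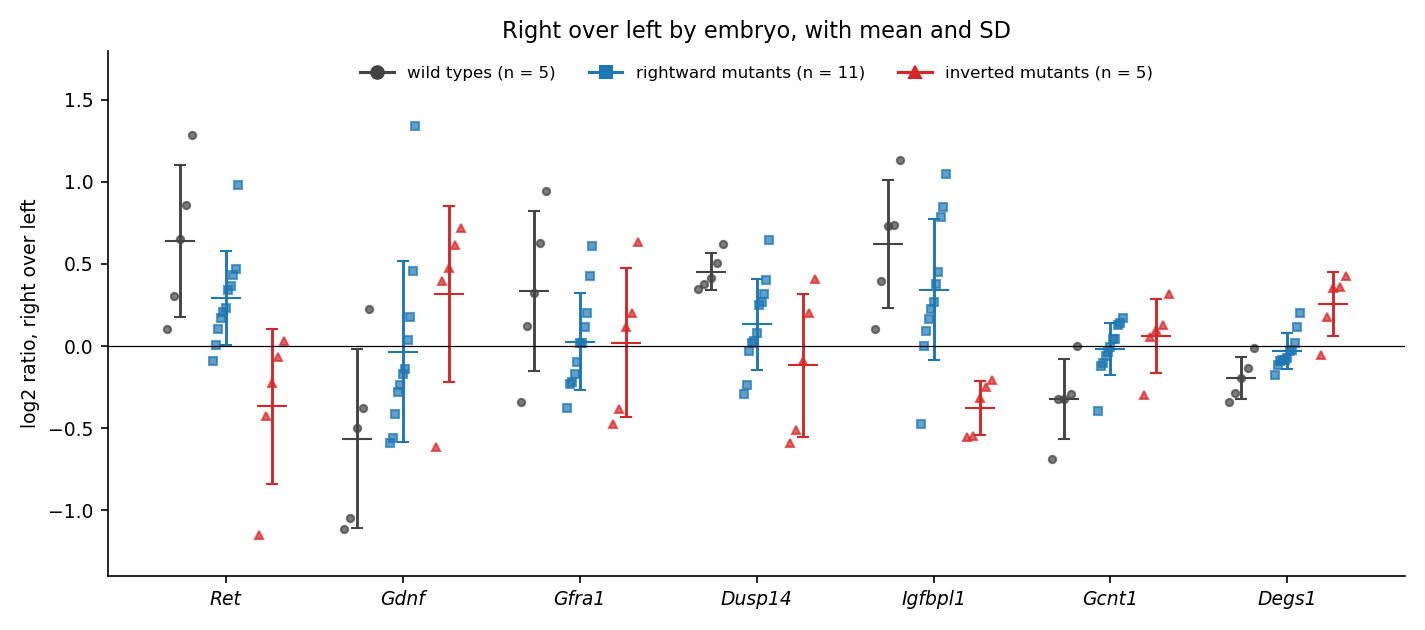
Log2 ratio of right over left by embryo for the 7 genes, with points for 5 wild types, 11 rightward and 5 inverted mutants and bars for the mean and SD of each group. Means of *Ret* go from 0.64 over 0.29 to -0.37, of *Igfbpl1* from 0.62 over 0.34 to -0.38 and of *Degs1* from -0.19 over -0.03 to 0.25.

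Inverted and rightward mutants share 1 genotype and differ in the direction of looping, and wild types take no part in their contrast. Since the rightward group mixes both laterality types, the contrast is not one of looping direction alone. By the exact test, *Ret* and *Igfbpl1* lay more to the left in inverted mutants and *Degs1* more to the right. Their mean log2 ratios differed by -0.66 for *Ret* (exact permutation p = 0.00229, two-sided), by -0.72 for *Igfbpl1* (exact permutation p = 0.00229) and by 0.29 for *Degs1* (exact permutation p = 0.00687), where the smallest p that 5 against 11 embryos allow is 0.000458. These p-values are not adjusted, and 12.3% of all genes reached p under 0.05 in this test, against these 3 of 7. *Dusp14* differed by -0.25 (exact permutation p = 0.186), *Gdnf* by 0.35 (p = 0.261), *Gcnt1* by 0.08 (p = 0.436) and *Gfra1* by -0.01 (p = 0.977). With 1 embryo left out, these 4 differences ran from -0.38 to -0.13, from 0.25 to 0.59, from 0.02 to 0.17 and from -0.16 to 0.12, with *Dusp14* nearest to 0 without 18_2 and *Gdnf* highest without 10_3. In none of the 7 were the ratios of both groups free of overlap, which held for 0.387% of all genes.

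EdgeR's interaction of side and looping, fitted over all 42 libraries, gave the same sizes without passing the threshold. The difference of asymmetry was -0.65 for *Ret* (SE 0.19, adjusted p = 0.159), -0.72 for *Igfbpl1* (SE 0.19, adjusted p = 0.115) and 0.29 for *Degs1* (SE 0.072, adjusted p = 0.0970). A single embryo decided some of these calls, since *Igfbpl1* passed at -0.80 (adjusted p = 0.0382) without 2_2 and *Degs1* at 0.36 (adjusted p = 0.0219) without 2_7. Of the 7 genes 0 passed, against 0.311% of all genes, and these 3 had an unadjusted p under 0.05, against 10.5%. DESeq2 called the same 3, against 1.62% of all genes, with adjusted p of 0.0259 for *Ret*, 0.00911 for *Igfbpl1* and 0.00882 for *Degs1*. The mean ratio of inverted mutants had the opposite sign to that of wild types in 6 of the 7 genes, all but *Gfra1*, and in 58.1% of all genes. Without embryo 18_2 it did so in 4, with *Dusp14* at 0.00 and *Gcnt1* at -0.00341 in inverted mutants, and the signs in wild types are those on which 5 of the genes had been selected. The interval of 2 standard errors ran from -0.56 to 0.06 for *Dusp14*, from -0.21 to 0.95 for *Gdnf* and from -0.13 to 0.29 for *Gcnt1*.

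Taken on each side by itself, the same contrast had 4 of 7 genes with an unadjusted p under 0.05 on the right and 1 on the left. On the right, *Ret* was lower in inverted than in rightward mutants by a log2 fold change of -0.58 (SE 0.21, p = 0.0105), *Igfbpl1* by -0.50 (SE 0.13, p = 0.00111) and *Dusp14* by -0.36 (SE 0.12, p = 0.00863), while *Degs1* was higher by 0.17 (SE 0.054, p = 0.00582). All 4 had an adjusted p of 0.9996 in edgeR, so that 0 of 7 passed, against 0.00805% of all genes, and 4.26% had an unadjusted p under 0.05. DESeq2 called 0 of 7, against 0.0644%. On the left, *Ret* differed by 0.01 with an interval from -0.34 to 0.35, *Igfbpl1* by 0.18 (adjusted p = 0.892) and *Dusp14* by -0.11 (adjusted p = 0.903), and *Degs1* by -0.11 (SE 0.053, p = 0.0467, adjusted p = 0.625). Single embryos moved these left-side values by over 1.5 times, *Igfbpl1* to 0.12 without 1_6 and 0.27 without 2_2, *Dusp14* to -0.23 without 10_3, -0.07 without 2_2 and -0.05 without 2_7, and *Degs1* to -0.18 without 2_7. On this side 7.89% of all genes had an unadjusted p under 0.05, and 0 of the 7 passed in edgeR or DESeq2, against 0.0121% and 0.338%. Whether the sides themselves differ in this was tested only by the interaction above.

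**Figure D5:**
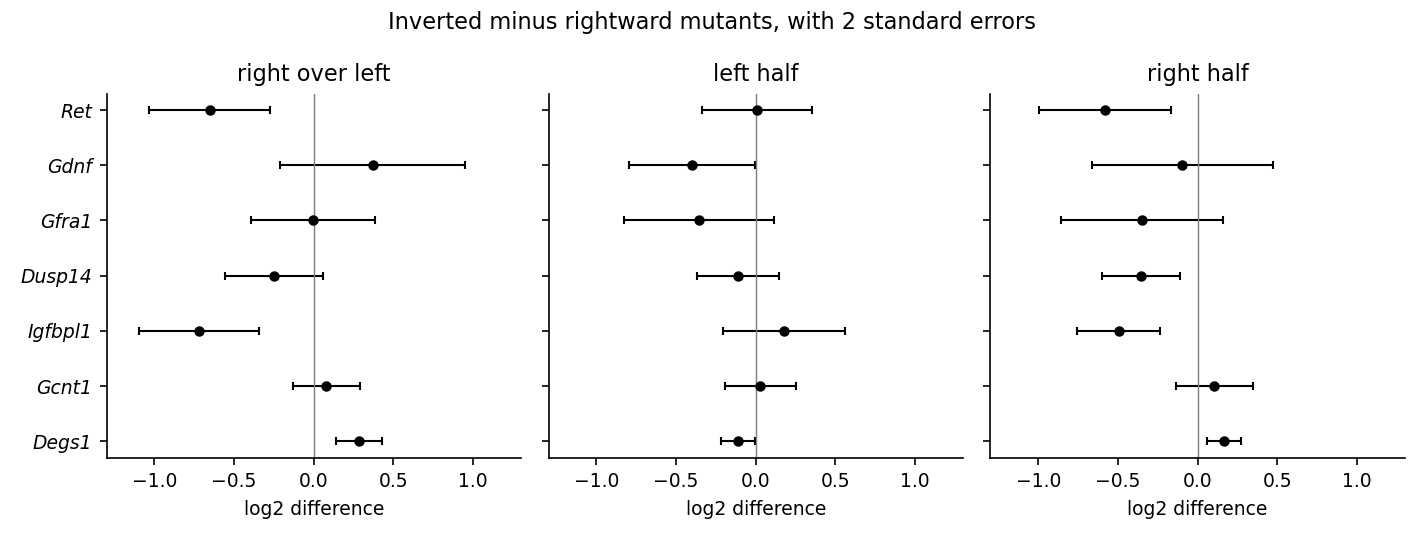
Difference of inverted minus rightward mutants for the 7 genes on the log2 scale, with bars of 2 standard errors from edgeR, in panels for the ratio of right over left, the left side and the right side. *Ret* has -0.65 for the ratio, 0.01 on the left and -0.58 on the right.

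For each gene the study had selected, the mean log2 ratio of rightward mutants was nearer to 0 than that of wild types, which is a description because the selection used those wild types. The difference of log2 ratios, rightward mutants minus wild types, was -0.35 for *Ret*, -0.32 for *Dusp14*, -0.28 for *Igfbpl1*, 0.31 for *Gcnt1* and 0.16 for *Degs1*. Single embryos moved those of *Ret* and *Igfbpl1* by over 1.5 times, to -0.18 for *Ret* without the wild type 7_1 and to -0.14 for *Igfbpl1* without the wild type 22_4, and males alone gave *Igfbpl1* -0.50. Of *Gdnf* and *Gfra1*, 0 of 2 passed here, against 0% of all genes in edgeR and in DESeq2, and 3.04% with an unadjusted p under 0.05, which neither reached.

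The level of the whole field, both sides summed and adjusted for sex, was compared between groups, a measure that the selection by side did not use directly. *Ret* was at 19.3 ± 3.43 CPM in wild types, 23.1 ± 4.97 in rightward mutants and 19.3 ± 6.43 in inverted mutants. Its log2 fold change was 0.31 between rightward mutants and wild types (SE 0.17, adjusted p = 0.969) and -0.28 between inverted and rightward mutants (SE 0.17, adjusted p = 0.99999). *Gdnf* and *Gfra1* differed by 0.32 (SE 0.20) and 0.36 (SE 0.23) in the first comparison and by -0.23 (SE 0.19) and -0.36 (SE 0.22) in the second. Single embryos moved these values by over 1.5 times. In the first comparison *Ret* had 0.20 without 10_1, and *Gdnf* and *Gfra1* 0.18 and 0.23 without 2_2. In the second *Ret* had -0.45 without 10_3 and -0.16 without 18_2, *Gdnf* -0.11 without 2_2 and -0.13 without 32_2, and *Gfra1* -0.24 without 2_2 and -0.23 without 2_7. In the first, 0 of 7 passed in edgeR or DESeq2, against 0.0254% and 0.0616% of all genes, and 0 of 7 had an unadjusted p under 0.05, against 5.07%. In the second, 0 of 7 passed, against 0% of all genes in both tools, and *Dusp14* alone had an unadjusted p under 0.05, at -0.24 (SE 0.10, p = 0.0276), against 3.21% of all genes. *Degs1* had -0.08 (SE 0.040) in the first and 0.03 (SE 0.039) in the second.

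Beyond the 3 genes of the complex, the pathway was read from lists of RET adaptors and effectors, of genes that respond to RET signalling, of other GDNF receptors and of regulators of *Gdnf* and *Ret*. In wild types and in rightward mutants 0 genes of these lists passed the adjusted threshold of edgeR or DESeq2 for right against left, where calls were rare, at 0% and 0.082% of all genes in wild types and 0.0263% and 0.136% in rightward mutants. An unadjusted p under 0.05 was reached by 1 regulator in wild types, against 2.76% of all genes, and by 3 response genes and 1 regulator in rightward mutants, against 3.59%. For right against left in inverted mutants, to which the list counts below refer, 2.04% of all genes passed in edgeR, 7.64% in DESeq2 and 15.1% at an unadjusted p under 0.05, so that a single call in a list is close to these shares and is no result about the list. Inverted mutants had 2 of 12 response genes higher on the right, *Wnt11*, a secreted WNT ligand, with a log2 fold change of 1.25 (SE 0.16, adjusted p = 0.0101) and *Spry4*, an inhibitor of receptor tyrosine kinase signalling, with 0.72 (SE 0.12, adjusted p = 0.0251), against 2.04% of all genes, and DESeq2 called 3, against 7.64%. *Wnt11* was also named by the study from these embryos, so it is no independent choice. The median of the 12 was 0.19, beside -0.01 over all genes tested. *Etv5* and *Kdr* had the highest mean counts of that list, and *Etv5*, a transcription factor downstream of RET in the ureteric bud, had an inverted minus rightward difference of asymmetry of 0.31 (SE 0.13, adjusted p = 0.383), while *Kdr*, the VEGF receptor, had 0.27 (SE 0.10, adjusted p = 0.327).

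*Wnt11* and *Spry4* were also the 2 of 12 that passed for the difference of asymmetry between inverted and rightward mutants, at 1.92 (SE 0.39, adjusted p = 0.0317) and 1.12 (SE 0.21, adjusted p = 0.0184), against 0.311% of all genes, and DESeq2 called the same 2, against 1.62%. Theirs was a direction opposite to that of *Ret*. On the left side 6 of the 12 response genes were lower in inverted mutants at an unadjusted p under 0.05, against 7.89% of all genes in either direction, among them *Dusp6* at -0.36 (SE 0.080, adjusted p = 0.298). In edgeR 0 of 12 passed the adjusted threshold there, against 0.0121% of all genes, and DESeq2 called 2 (*Dusp6* and *Wnt11*), against 0.338%. FGF signalling and other receptor tyrosine kinases raise the same response genes, so this list is not specific to RET.

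Of 25 adaptors and effectors tested, 1 was higher on the right of inverted mutants, *Dok4*, a docking protein that binds phosphorylated RET, at 0.61 (SE 0.12, adjusted p = 0.0405), against 2.04% of all genes. DESeq2 called 3, *Dok4*, *Gab1* and *Grb10*, against 7.64%, and the list's median was 0.08. *Grb10* and *Nras* had its highest mean counts, and *Grb10*, an adaptor that binds RET and the insulin receptor, had 0.22 on the right of inverted mutants (SE 0.050, adjusted p = 0.0733). Of 4 other GDNF receptors, *Ncam1*, an adhesion molecule that can bind GDNF with GFRA1, was lower on the right of inverted mutants at -0.39 (SE 0.077, adjusted p = 0.0468). *Itgb1* and *Cdh2*, an integrin and a cadherin with the most counts of that list, had 0.22 (SE 0.058, adjusted p = 0.112) and -0.14 (SE 0.058, adjusted p = 0.288). DESeq2 called *Ncam1* and *Itgb1* (adjusted p = 0.000838), against 7.64% of all genes, and all 4 had an unadjusted p under 0.05 in edgeR, 1 higher and 3 lower, against 15.1%. Of 24 regulators of *Gdnf* and *Ret*, 1 passed there, *Osr1*, a transcription factor of the intermediate and lateral mesoderm that is also among the second heart field markers, higher on the right at 0.60 (SE 0.096, adjusted p = 0.0212), against 2.04% of all genes. DESeq2 called 5 of the 24, against 7.64%, and 3 were higher and 6 lower at an unadjusted p under 0.05, against 15.1%. The median of the 24 was -0.14, and *Robo2*, a receptor that restricts where *Gdnf* is expressed, and *Rara*, a retinoic acid receptor, had the most counts and values of 0.13 (SE 0.056, adjusted p = 0.325) and 0.03 (SE 0.042, adjusted p = 0.784). In the difference between inverted and rightward mutants 0 genes of these 3 lists passed in edgeR, against 0.311% of all genes. DESeq2 called 1, *Osr1* at 1.05 (adjusted p = 0.0104), against 1.62%.

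Lists around the other members were read in the same way. Of 20 dual specificity phosphatases tested, *Dusp26* was higher on the right of inverted mutants at 0.62 (SE 0.12, adjusted p = 0.0417), a single call as in the 2 lists that follow, against 2.04% of all genes, while *Dusp14* itself had -0.11 (SE 0.15). The most abundant of them, *Dusp9* and *Dusp6*, both phosphatases of MAP kinases, each had 0.26 (SE 0.065 and 0.10, adjusted p = 0.0990 and 0.279). Of 14 insulin-like growth factors and binding proteins, *Igf2r*, the receptor that clears IGF2, was higher on the right at 0.56 (SE 0.062, adjusted p = 0.0063), opposite in sign to *Igfbpl1*. *Igfbp5*, the binding protein gene with the most counts, had 0.35 (SE 0.11, adjusted p = 0.163). Of 15 O-glycan enzymes tested, *St6galnac4*, a sialyltransferase, was higher on the right at 0.49 (SE 0.088, adjusted p = 0.0324), and its difference from rightward mutants was 0.54 (SE 0.11, adjusted p = 0.036), with *Gcnt1* at 0.07 and 0.08. DESeq2 called 3, 2 and 1 genes of these 3 lists, against 7.64% of all genes. *Galnt7* and *Galnt1*, which start O-glycans and had the most counts, had -0.03 and -0.04. Of 27 genes of ceramide synthesis and use 0 passed, with a median of 0.13 on the right of inverted mutants, where 9 including *Degs1* were higher at an unadjusted p under 0.05, against 15.1% of all genes in either direction, and DESeq2 called 6, against 7.64%. *Cers2*, a ceramide synthase second to *Degs1* in counts, had 0.04 (SE 0.056).

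Markers of several other tissues also differed between the sides of inverted mutants. Inverted mutants had more heart muscle RNA on the right, with 8 of 10 markers passing edgeR's adjusted threshold, against 2.04% of all genes, a mean log2 ratio of the summed markers of 1.06 ± 0.29 and the right side higher in 5 of 5, where 15.5% of all genes lay on 1 side in every inverted mutant. The summed level ranged from 974 to 5049 CPM in wild types, from 347 to 5948 in rightward and from 1399 to 5601 in inverted mutants. Second heart field markers were higher on the right in 5 of 5 (5 of 14 markers passing, 0.47 ± 0.18). Neural tube markers were lower on the right in 5 of 5 (3 of 10 passing, -0.91 ± 0.41), at 46.8 to 222 CPM in wild types, 43.0 to 131 in rightward and 49.7 to 159 in inverted mutants. Paraxial mesoderm markers were lower on the right in 5 of 5 inverted mutants (1 of 10 passing, -0.74 ± 0.50) and higher on the right in 4 of 5 wild types (0.63 ± 0.84) and 8 of 11 rightward mutants (0.31 ± 0.74), at 54.2 to 355, 94.2 to 238 and 46.2 to 265 CPM in wild types, inverted and rightward mutants. None of these markers had a median count of 0. In wild types and rightward mutants, heart muscle had mean log2 ratios of -0.08 ± 1.08 and -0.01 ± 0.78. The second heart field had -0.08 ± 0.59 and -0.02 ± 0.32, and neural tube 0.06 ± 0.97 and -0.04 ± 0.60. For inverted minus rightward asymmetry 0 markers of these 4 tissues passed in edgeR, against 0.311% of all genes. DESeq2 called *Osr1* and *Tcf15* alone, against 1.62%. The mean ratio of paraxial mesoderm had the sign of that of *Ret* in all 3 groups, and so had that of blood markers. Blood had 0.14 ± 0.65 in wild types, 0.01 ± 0.50 in rightward and -0.24 ± 0.81 in inverted mutants. The part of these tissues in the results on *Ret*, *Igfbpl1* and *Degs1* was not tested.

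The tissues best known for *Ret*, neural crest and intermediate mesoderm, had 0 of 20 markers past edgeR's adjusted threshold for right against left in each of the 3 groups, against 2.04% of all genes in inverted mutants. In that group 2 markers of each tissue had an unadjusted p under 0.05, against 15.1% of all genes, and DESeq2 called 3, against 7.64%, the neural crest marker *Ets1* at -0.25 (adjusted p = 0.00394) and the duct markers *Cdh16* at 1.47 (adjusted p = 0.0408) and *Gata3* at 0.47 (adjusted p = 0.0335), named after their values were seen. Neural crest markers, at 118 to 383 CPM over all libraries, had mean log2 ratios of -0.10 ± 0.50, -0.03 ± 0.28 and -0.18 ± 0.11 in wild types, rightward and inverted mutants. Markers of intermediate mesoderm and nephric duct, at 91.9 to 261 CPM, had -0.01 ± 0.41, 0.01 ± 0.19 and 0.17 ± 0.22. The median log2 fold change of these 10 markers in inverted mutants was -0.20, opposite in sign to their summed ratio and to *Cdh16* and *Gata3*. Foregut and endothelium had 1 marker each higher on the right of inverted mutants (*Hhex* at 1.04 and *Nfatc1* at 0.54), and blood and yolk sac endoderm had 0. Summed endothelial markers, at 417 to 591 CPM, were higher on the right in 5 of 5 inverted mutants (0.20 ± 0.06), with -0.10 ± 0.27 in wild types and 0.01 ± 0.13 in rightward mutants, and foregut markers were so in 4 of 5 (0.31 ± 0.30). Yolk sac endoderm markers varied most, from 29.2 to 1644 CPM, with mean log2 ratios of -1.03 ± 2.08, -0.17 ± 1.47 and 0.89 ± 2.28 in wild types, rightward and inverted mutants, the signs of the means of *Degs1*, *Gdnf* and *Gcnt1*. Heart muscle and second heart field markers, given above, had the same signs in these groups. The part of these tissues in the results on *Degs1*, *Gdnf* and *Gcnt1* was not tested.

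Over the 16 mutants, the genes whose log2 ratios followed those of *Ret* most closely, among 12978 with a mean of at least 100 counts, were *Foxd2* (Pearson r = 0.87), *Sltm* (0.86), *Dgcr6* (0.85), *Spc24* (0.85) and *Flrt2* (0.85). *Foxd2*, a forkhead transcription factor, had mean log2 ratios of 0.20 in wild types, 0.37 in rightward and -0.73 in inverted mutants. The genes that ran most against *Ret* were *Rab14* (-0.85), *Taf9b* (-0.84), *Patj* (-0.83), *Tulp1* (-0.83) and *Rasgef1b* (-0.82). Among the other members r was 0.56 for *Dusp14*, 0.49 for *Gfra1*, 0.49 for *Igfbpl1*, -0.20 for *Gdnf*, -0.47 for *Degs1* and -0.61 for *Gcnt1*. For summed markers r was 0.69 for paraxial mesoderm, 0.45 for neural crest, 0.42 for neural tube, 0.01 for blood, -0.25 for yolk sac endoderm, -0.40 for endothelium, -0.46 for second heart field, -0.53 for heart muscle, -0.55 for intermediate mesoderm and -0.64 for foregut. The points pool 2 groups that differ in *Ret*, and both genes of a pair share their libraries, so that these values describe likeness and carry no test.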

How the data were processed

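The left and the right side of the heart field of 21 embryos gave 42 libraries. STAR alignment to GRCm39 and featureCounts (Subread 2.0.6) were used by the authors, and the deposited values are raw counts per gene, with library totals from 36073684 to 62970327. Groups were taken from genotype and looping direction in the labels, and all value columns were used. The members and gene lists were chosen with earlier results of these data known. Named beside the members were list genes past the adjusted threshold, the 2 genes of a list with the most counts, and the 5 genes most and least like *Ret* among those with a mean of at least 100 counts.

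Counts were filtered with filterByExpr (a minimum count of 5, a minimum total of 10, a large group of 50 and a proportion of 0.2), TMM-scaled and tested with edgeR 4.0.16 in R 4.3.3, with the embryo as a block for right against left and for interactions, and sex as a covariate for levels. The pairing comes from the labels, since both sides are of 1 embryo. The residuals of the sides had a median correlation of 0.263 over 2000 genes, with a lowest of -0.266 and 18 of 21 embryos over 0.1. Each embryo is a biological replicate. No 2 libraries agreed within counting noise (lowest chi-square per gene 8.265). P-values were adjusted by Benjamini-Hochberg over all genes at a threshold of 0.05. Log2 ratios per embryo used CPM with a prior count of 2, exact sign-flip or permutation tests over embryos (scipy 1.17.1, two-sided) and 100000 resamples for correlations. The fits were tested on simulated data, in which edgeR called 160 of 200 genes changed by a log2 difference of 1 between inverted and rightward asymmetry, among 26335 genes simulated. Alternatives were DESeq2 1.42.0, edgeR's newer quasi-likelihood method, other scaling, filters and prior counts, no replicate block, males alone and leaving out each embryo. Counts per gene do not separate isoforms, and depth sets the precision, which is lowest for *Gdnf* at 50 to 228 counts per library.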

Additional observations from a re-analysis of the deposited data

Results flagged for a closer look

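In *Gdnf*, embryo 10_3 stood apart from the other 4 inverted mutants, with a log2 ratio of right over left of -0.61 where the others were between 0.40 and 0.72. The gap to its neighbour took up 0.759 of the group's range, above Dixon's critical value of 0.71 for 5 samples. Embryo 10_3 also had *Ret* at -0.43 and *Gfra1* at -0.38.

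In wild types, embryo 7_1 had the lowest level of *Gdnf*, at 1.33 CPM, with a gap of 0.786 of the range. This embryo had the largest log2 ratio of *Ret* among the 21 embryos, at 1.29. Of 28 groups of 5 embryos tested in this way 2 had such a sample, where chance gives about 1 in 20.

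The asymmetry of *Ret* differed between inverted and rightward mutants by -0.66 (exact permutation p = 0.00229), that of *Igfbpl1* by -0.72 (exact permutation p = 0.00229) and that of *Degs1* by 0.29 (exact permutation p = 0.00687). A p under 0.05 in this test was reached by 12.3% of all genes.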

How the results depend on the processing

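Most values kept their direction and their side of the threshold (or, where no test was made or none could pass the threshold, moved by less than 1 SD), with 627 of 654 values under other settings and 1165 of 1226 with 1 embryo left out. DESeq2 called 2 of the 7 genes for right against left in inverted mutants and 3 for inverted minus rightward asymmetry, where *Ret* had -0.65 (adjusted p = 0.0259), and edgeR called 0 in both. With at least 10 counts in every library 1 was called in inverted mutants, *Igfbpl1* (adjusted p = 0.0462), and with no filter 2, *Igfbpl1* (adjusted p = 0.0196) and *Degs1* (adjusted p = 0.0476), where the number of genes tested differs by construction. Without 1 embryo the number called ranged from 0 to 1 in both comparisons.

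Without the replicate block 0 of the 7 genes passed in any comparison, and the pairing changed a sign only for *Gdnf* in rightward mutants (0.0447) and for *Gfra1* in inverted minus rightward asymmetry (0.0287). The newer quasi-likelihood method gave 0.0256 and 0.0103 for the same genes, and no filter gave 0.0023 for *Gfra1*. In males alone *Gcnt1* changed sign in rightward mutants (0.00642, and 0.00858 as a mean of ratios), for the whole-field level of inverted against rightward mutants (-0.000271) and for its left level (-0.0882), and *Gfra1* did so in inverted mutants (-0.0717). Males alone gave the exact test of *Ret* in rightward mutants a mean of 0.22 (p = 0.063) and that of *Igfbpl1* 0.25 (p = 0.25), both past the threshold with all embryos, and gave a Pearson r of -0.17 for the ratios of *Ret* and *Gfra1*, 0.0576 for those of *Gdnf* and *Gfra1*, and 0.93 (permutation p adjusted to 0.0179) for the levels of *Gdnf* and *Gfra1*. The cause was not tested.

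With 1 embryo left out, the following changed sign within these ranges. In rightward mutants, right against left ran from -0.17 to 0.0268 for *Gdnf*, from -0.0288 to 0.0624 for *Gfra1* and from -0.0334 to 0.0222 for *Gcnt1*, and the means of ratios from -0.17 to 0.0215, -0.0317 to 0.0670 and -0.0371 to 0.0191. In inverted mutants it ran from -0.12 to 0.14 for *Gfra1* and from -0.00570 to 0.16 for *Gcnt1*. Means of ratios there ran from -0.13 to 0.14 for *Gfra1*, from -0.00341 to 0.15 for *Gcnt1* and from -0.25 to 0.00197 for *Dusp14*. Inverted minus rightward asymmetry of *Gfra1* ran from -0.16 to 0.12 in both tests. Levels ran from -0.17 to 0.0658 for *Ret* on the left, from -0.27 to 0.0790 for *Gdnf* on the right and from -0.0539 to 0.10 for *Gcnt1* on the left. For the whole field, inverted against rightward mutants ran from -0.0144 to 0.14 for *Gcnt1* and from -0.00103 to 0.0488 for *Degs1*, and rightward mutants against wild types from -0.0848 to 0.0476 for *Gcnt1*. The Pearson r of the ratios ran from -0.32 to 0.0903 for *Ret* and *Gdnf* and from -0.0796 to 0.0908 for *Gdnf* and *Gfra1*. With no change of sign, it ran from 0.0239 to 0.70 for the ratios of *Ret* and *Gfra1* and from 0.48 to 0.78 for the levels of *Gdnf* and *Gfra1*.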
